A study of Mus musculus with 16 samples.

Results

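The comparison described here sets 4 DTR IP libraries against 4 control IP libraries, which are 8 of the 16 libraries of the series. All 47729 genes with a value in the deposited data were read, and 16994 of them had enough signal to be tested. Control mice were GLAST CreERT/+; Rpl22 HA/+ and DTR mice were Lgr5 DTR-EGFP/+; GLAST CreERT/+; Rpl22 HA/+. Both genotypes thus carried GLAST CreERT and the tagged ribosomal protein, and DTR mice also carried the human diphtheria toxin receptor and EGFP at the Lgr5 locus. According to the study's methods, diphtheria toxin (DT) and tamoxifen were injected into both genotypes at P1 and cochleae were taken at P4, whereas the sample labels list no treatment for the controls. Each replicate was a pool of 8 cochleae from 4 mice, dissected free of the spiral ganglion, the lateral wall and the membrane of Reissner. The input libraries, made from a small part of each homogenate before the antibody was added, enter the normalization, the expression filter and the shared estimate of spread of every comparison, but are contrasted with each other only in the last one.

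In the RiboTag design, Cre recombinase switches the ribosomal protein RPL22 to an HA-tagged form, and an antibody to HA then precipitates ribosomes with the mRNA they carry. GLAST (Slc1a3) CreERT is active in glia-like supporting cells, here the inner phalangeal cells and cells of the greater epithelial ridge (GER), the thickened epithelium medial to the hair cells. DT kills cells that carry its receptor by inactivating elongation factor 2, and Lgr5, a receptor for R-spondins that amplifies Wnt signals, is expressed in several kinds of supporting cell of the neonatal organ of Corti and in part of the GER. Supporting cells of the newborn mouse cochlea can re-enter the cell cycle after damage, an ability that is lost with age. An immunoprecipitate can also hold RNA of untagged cells, DTR mice have lost one Lgr5 allele to the knock-in, and in such bulk libraries fewer cells of a type and less RNA per cell cannot be told apart.

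Each IP library held between 28089836 and 34362992 reads counted on genes, and 3 reads corresponded to 0.0873 to 0.107 CPM, the reads of a gene scaled to a common library total. Pearson's r of log2 values was 0.976 to 0.990 within control IP, 0.975 to 0.986 within DTR IP and 0.955 to 0.973 between the groups. Replicates were separate pools of mice. Library 3 of DTR IP stood apart most often, as the lowest or highest outlying value in 8 of the 22 gene and group combinations where 1 library lay far from the other 3. Log2 fold changes (LFC) below are DTR over control on the log2 scale of quantile normalized CPM plus 0.5, a scale that understates changes of low genes, whereas levels in CPM are the deposited values of libraries 1 to 4 in order. A gene passed when its adjusted p was below 0.05, and was called when it also had an absolute LFC of at least 1 and a separation above 1.5 between the groups.

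The targeted cells were checked first. Lgr5 (chr10:115450311-115587780, minus strand, GRCm38) had 39.3, 40.0, 35.5 and 31.4 CPM in the control libraries against 8.13, 9.47, 8.61 and 11.3 CPM in the DTR libraries. All 4 DTR values lay below all control values, with an LFC of -1.93 (SE 0.15, adjusted p = 3.47e-08). For this value, cell loss and the knock-in allele cannot be told apart. Slc1a3, the gene after which the Cre line is named, did not pass the test, with a mean of 236 CPM in control libraries against 215 CPM in DTR libraries (LFC -0.11, adjusted p = 0.497), and the tagged gene Rpl22 had 44.3 and 49.2 CPM (LFC 0.12, adjusted p = 0.592).

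After DT, 1434 genes were higher (8.44% of the genes tested) and 1240 were lower (7.3%) in DTR IP on the adjusted p alone. With all criteria, 191 genes were called higher (1.12%) and 228 were called lower (1.34%). Of the former 49 passed the expression minimum through DTR groups alone, and of the latter 24 through control groups alone, so these genes were tested only because 1 genotype was high. With IP libraries alone 990 genes passed higher and 868 lower, with edgeR 985 and 845, and 2004 and 1782 once replicate numbers were blocked. Without library 3 of DTR IP 253 were called higher and 230 lower, and without quantile normalization the split was 221 higher and 193 lower. The called lower genes together took 14833 to 15836 CPM in the control libraries and 4489 to 5749 CPM in the DTR libraries. The called higher genes took far less of the signal, rising from a sum of 1200.4 to 1491 CPM in the controls to 4628 to 6840 CPM in the DTR libraries. These sums describe the genes chosen by the test and are no further evidence for it. Of the called higher genes 162 were protein coding, as were 212 of the called lower genes, and 74 of the former and 64 of the latter had an absolute LFC of at least 2.

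**Figure D1:**
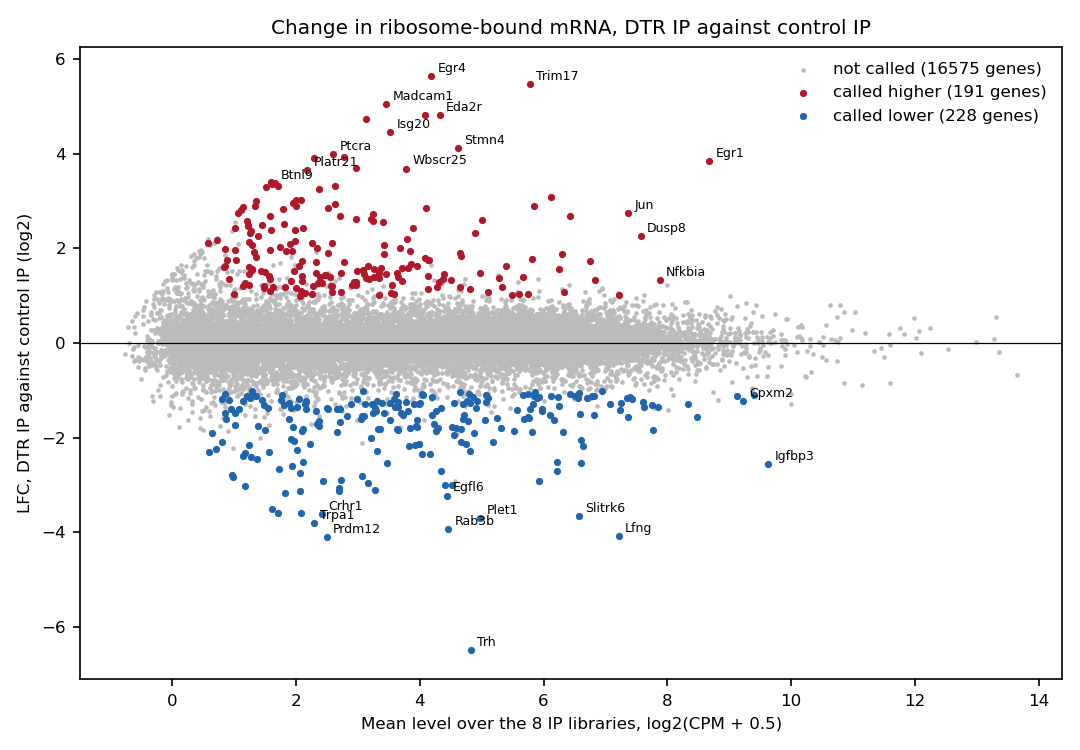
Each point is 1 of 16994 tested genes, with its mean level over the 8 IP libraries (log2(CPM + 0.5)) on the x axis and its LFC on the y axis, and the 191 genes called higher and 228 called lower are coloured. Trh (LFC -6.50) and Egr4 (LFC 5.65) mark the ends of the range, and Igfbp3 and Egr1 combine a high level in CPM with a large change.

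Trh, which encodes the precursor of thyrotropin-releasing hormone (chr6:92242061-92244650, minus strand), fell more than any other tested gene. It had 53.3, 43.3, 71.1 and 54.1 CPM in the control libraries against 0.0964, 0.214, 0.166 and 0.0658 CPM in the DTR libraries, where these last values rest on 3, 6, 5 and 2 reads. The LFC of Trh was -6.50 (SE 0.19, adjusted p = 8.17e-14), and since it depends on the pseudocount it ranged from -8.77 to -5.64 over the alternatives. Trhr, the receptor of the hormone, fell from 2.03, 1.95, 2.35 and 1.504 CPM to 0, 0.107, 0 and 0.0658 CPM (LFC -2.31). Trhr was named after its values were seen, as were Galr1 and Penk. The galanin receptor gene Galr1 went from a mean of 3.48 to 0.0255 CPM (LFC -3.02), and the enkephalin precursor gene Penk from 39.9 to 5.02 CPM (LFC -3.00). Several other receptors and signalling genes were among the 12 largest falls of named genes. Crhr1, a receptor for corticotropin-releasing hormone, fell from 9.30 to 0.392 CPM (LFC -3.62), the cation channel gene Trpa1 from 8.58 to 0.199 CPM (LFC -3.81), and the orphan receptor gene Gpr50 from 5.50 to 0.0347 CPM (LFC -3.60). Gpr50 retained 1, 3, 0 and 0 reads in the DTR libraries, so its fitted LFC also depends on the pseudocount. Trh, Crhr1, Galr1 and Gpr50 were among the genes that passed the expression minimum through the control groups alone.

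The other large falls included genes of the sensory epithelium. Lfng, the lunatic fringe glycosyltransferase that modifies Notch receptors (chr5:140607320-140615545, plus strand), had 273, 305, 292 and 243 CPM in the control libraries against 14.1, 18.7, 13.4 and 20.8 CPM in the DTR libraries. The groups lay far apart, with an LFC of -4.08 (SE 0.17, adjusted p = 1.18e-11). Slitrk6, a membrane protein known for its role in cochlear innervation, fell from 177, 202, 174 and 144 CPM to 13.6, 15.9, 9.38 and 17.3 CPM (LFC -3.66). Igfbp3, a binding protein of insulin-like growth factors, had 1339, 1291, 1462 and 1340.3 CPM in the control libraries against 257, 237, 167 and 236 CPM in the DTR libraries (LFC -2.56, SE 0.13, adjusted p = 8.00e-11). It had the highest CPM of all called lower genes, on a scale that is not corrected for length. Prdm12 (LFC -4.11), a transcriptional regulator, Rab3b (LFC -3.94), a small GTPase of vesicle release, Plet1 (LFC -3.70), an epithelial surface protein, and Egfl6 (LFC -3.22), a secreted protein with EGF-like repeats, completed the list with Fgf3 and Rpl5-ps1. Rpl5-ps1 (LFC -3.58) is a pseudogene of Rpl5, and its reads cannot be assigned with certainty.

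Egr4, a zinc finger transcription factor (chr6:85511121-85513589, minus strand), rose more than any other tested gene. It had 0.0299, 0.0291, 0 and 0.262 CPM in the control libraries, which rest on 1, 1, 0 and 8 reads, against 64.7, 37.7, 11.6 and 26.7 CPM in the DTR libraries. All DTR values were far above all control values but spread widely among themselves, and the LFC was 5.65 (SE 0.45, adjusted p = 3.77e-08), between 4.78 and 8.71 over the alternatives. Egr1, another member of the family and the called higher gene with the highest CPM, had 58.4, 55.4, 43.7 and 42.2 CPM in the control libraries against 1128, 1099, 324 and 518 CPM in the DTR libraries. Libraries 1 and 2 of DTR IP were the highest for both genes and library 3 the lowest, and the LFC of Egr1 was 3.85 (SE 0.40, adjusted p = 1.35e-06). Eda2r, the receptor of ectodysplasin A2 and a p53 target, rose from 0.508, 1.13, 1.03 and 0.327 CPM to 44.1, 56.2, 25.1 and 27.3 CPM (LFC 4.82, SE 0.25). Isg20, an interferon-induced exonuclease, rose from 0.329, 0.495, 0.617 and 0.294 CPM to 21.9, 24.0, 20.9 and 19.4 CPM (LFC 4.45). The largest rises of named genes also included Madcam1 (LFC 5.05), an adhesion molecule of mucosal vessels, Stmn4 (LFC 4.12), a microtubule regulator of the stathmin family, Ptcra (LFC 3.98), the pre-T cell receptor alpha chain, Btnl9 (LFC 3.38), a butyrophilin-like protein, Hist1h4h (LFC 3.33), a histone H4 gene, and the noncoding genes Wbscr25 (LFC 3.69) and Platr21 (LFC 3.65). Egr4, Eda2r, Madcam1, Btnl9 and Hist1h4h were among the genes that passed the expression minimum through the DTR groups alone. Trim17, a ubiquitin ligase gene, rose from 1.82, 1.57, 1.79 and 1.47 CPM to 145, 129, 72.8 and 82.1 CPM (LFC 5.48), but its exons overlap those of Hist3h2a and 2 other annotated genes. Since the kit does not mark strand and the strand setting of the counting is not given in the sources used here, reads of overlapping genes cannot be told apart, which also touches Wbscr25 (overlapping Cldn3), Jun (Junos) and Nr1d1 (Thra).

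**Figure D2:**
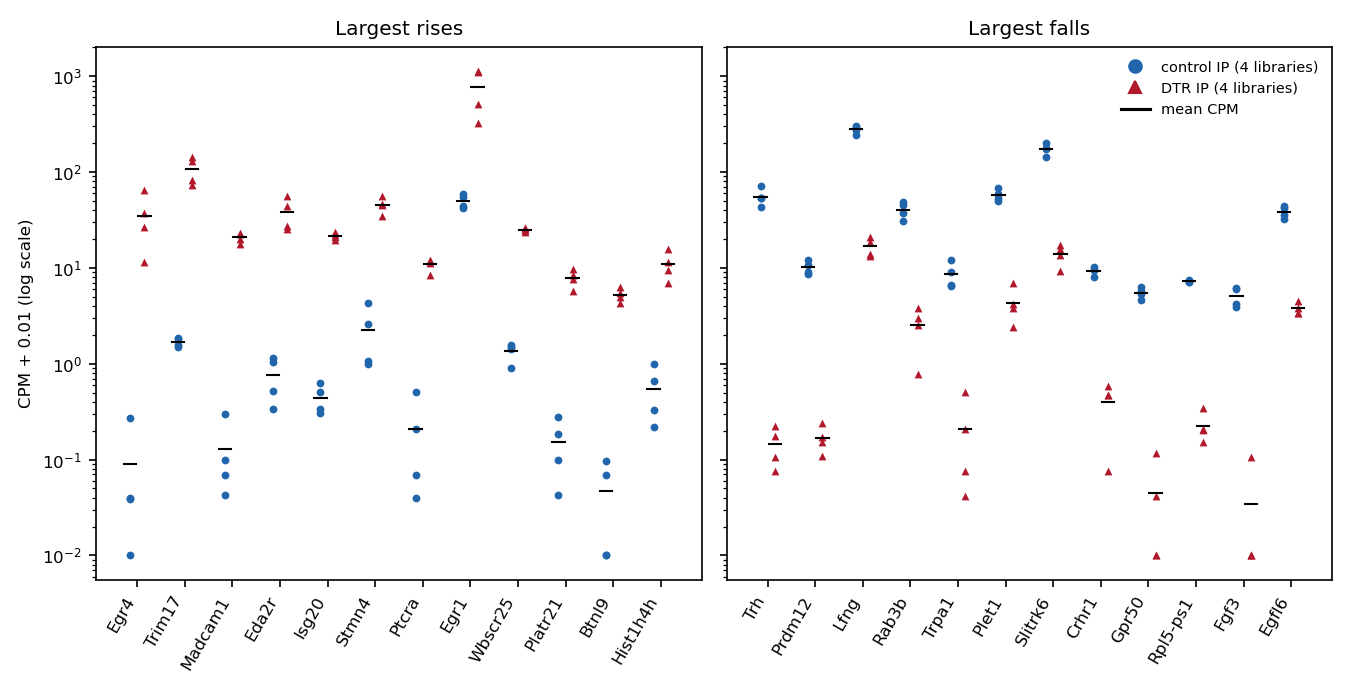
Points are single libraries, 4 control IP (circles) and 4 DTR IP (triangles) for each of the 12 largest rises and the 12 largest falls, on a log axis of CPM plus 0.01, and bars mark group means. The control and DTR points of Trh, Lfng, Egr4 and Eda2r do not overlap, and the DTR points of Egr1 span 324 to 1128 CPM.

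Many genes that mark supporting cells of the organ of Corti were lower. Of 17 listed genes, 11 fell (against 7.3% of all tested genes) and 1 rose, 6 were called lower, and the median LFC was -1.20, against -0.00 over all tested genes. Fgfr3, an FGF receptor of pillar and Deiters' cells, had 126, 153, 116 and 107 CPM in the control libraries against 18.5, 21.4, 20.8 and 28.5 CPM in the DTR libraries (LFC -2.52, SE 0.18, adjusted p = 1.54e-08). Sox2, a transcription factor of the prosensory domain and of supporting cells, had 88.7, 83.1, 96.1 and 91.7 CPM and 35.1, 33.0, 29.4 and 42.2 CPM (LFC -1.40). The nuclear receptor gene Rorb fell from 46.0 to 9.26 CPM (LFC -2.28), the potassium channel gene Kcnj10 from 60.8 to 18.0 CPM (LFC -1.79), the calcium-binding protein gene S100a1 from 635 to 270.2 CPM (LFC -1.20) and the fatty acid binding protein gene Fabp7 from 368 to 147 CPM (LFC -1.43). S100b was the member that rose, from 603 to 874 CPM (LFC 0.58), and it did not pass with median centring, IP libraries alone, edgeR, DESeq2 or no filter, or without library 2 of control IP. Sparcl1, the most abundant member in CPM, did not pass (LFC 0.12), nor did Prox1 (LFC -1.22).

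Of 14 GER genes 7 fell (against 7.3% of all tested genes), with a list median LFC of -0.43, and the falls were uneven. Like the other lists, this one was chosen with earlier results of these data known. The paper reports falls of Lfng, Igfbp3, Cyp26b1 and Ano1 from the same libraries, so the count is no independent evidence. Besides Lfng and Igfbp3, Cyp26b1, which degrades retinoic acid, fell from 122, 132, 111 and 144 CPM to 21.8, 18.2, 15.6 and 24.3 CPM (LFC -2.70). The activin antagonist gene Fst fell from a mean of 27.4 to 4.55 CPM (LFC -2.35) and the calcium-activated chloride channel gene Ano1 from 338 to 95.7 CPM (LFC -1.83). The other 7 did not pass, including Igf2 (LFC 0.24), Calb1 (LFC 0.30), Epyc (LFC 0.19) and Crabp1 (LFC 0.53). Of 6 genes of the lateral epithelium 3 fell, led by Bmp4 (LFC -1.85) and Lmo3 (LFC -1.44). Of 12 tectorial membrane genes tested 5 fell and 2 rose, beside 7.3% and 8.44% of all tested genes. Otog (LFC -1.56), Tecta (LFC -0.88), Tectb (LFC -0.68) and the collagen-like otolin gene Otol1 (LFC -1.11) were among the falls, and the collagen genes Col11a1 (LFC 0.54) and Col2a1 (LFC 0.55) were the rises. There was no rise with median centring or edgeR, and 1 with IP libraries alone or no filter, or without library 1, 2 or 4 of DTR IP or library 3 of control IP. With no filter 3 fell. The connexin genes Gjb2 (LFC -0.61), Gjb6 (LFC -0.62) and Gjb1 (LFC -0.95), whose products form cochlear gap junctions, fell among 7 tested. Gjb6 did not pass with no filter, or without library 1 or 2 of DTR IP or library 3 or 4 of control IP. Gjb1 did not pass with edgeR and no filter.

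In the Notch pathway, 8 of 26 genes fell and 1 rose, beside 7.3% and 8.44% of all tested genes, with a median LFC of -0.25. The ligand gene Jag1 fell from 304, 300.5, 362 and 262 CPM to 123, 103, 147 and 123 CPM (LFC -1.32, SE 0.15). The target genes Hes5, Hey2, Hey1 and Heyl all fell, with Hes5 going from 8.16, 12.3, 14.99 and 8.27 CPM to 0.643, 0.570, 0.762 and 1.87 CPM (LFC -3.13), Hey2 from a mean of 46.3 to 19.6 CPM (LFC -1.26) and Hey1 from 179 to 94.4 CPM (LFC -0.93). Hes1, another Notch target, did not pass (LFC -0.06), and the receptor genes Notch1 (LFC -0.33) and Notch2 (LFC 0.39) did not pass either. Dll3, a divergent ligand, was the member that rose, between means of 0.584 and 1.82 CPM. No gene of the list rose under 9 alternatives, among them the minimum of 2 CPM, where a gene of that level may be left out. Since Lfng, Jag1 and Hey2 are also marker genes of the lists above, the counts of these lists are not independent of each other.

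Among 35 Wnt receptor and feedback genes, 13 fell and 1 rose, beside 7.3% and 8.44% of all tested genes (median LFC -0.26). The falls spanned receptors, ligands and secreted inhibitors alike. Besides Lgr5, the related receptor gene Lgr6 fell from 37.2 to 18.0 CPM (LFC -1.08) and the Frizzled receptor gene Fzd4 from 63.4 to 33.2 CPM (LFC -0.97). Of the ligands, Wnt7a (LFC -0.92) and Wnt7b (LFC -0.69) fell and Wnt5a rose (LFC 0.43), and no gene of the list rose with median centring, edgeR or DESeq2. Of the inhibitors, Sfrp1 fell from 817, 871, 1048 and 979 CPM to 378, 466, 375 and 474 CPM (LFC -1.09), Dkk3 from 778, 720.0, 742 and 818 CPM to 416, 423, 202 and 356 CPM (LFC -1.13) and Notum, which inactivates Wnt proteins, from a mean of 45.5 to 21.3 CPM (LFC -1.14). Dkk3 and Rspo1 (LFC -1.18) were no longer called without library 3 of DTR IP, when Dkk3 had an LFC of -0.88 and Rspo1 of -0.95. The feedback targets Axin2 (LFC 0.10), Rnf43 (LFC 0.20) and Lef1 (LFC 0.26) did not pass. Of 20 FGF pathway genes, 4 fell. The ligand genes Fgf3 (LFC -3.50) and Fgf20 (LFC -3.17) were near zero in DTR IP, with Fgf3 at 3, 0, 0 and 0 reads, and both passed the expression minimum through the control libraries alone. Fgf10 fell from 122 to 56.3 CPM (LFC -1.18) with the receptor Fgfr3, whereas the receptor Fgfr1 (LFC 0.24) and the feedback inhibitors Spry1 (LFC 0.07) and Spry4 (LFC -0.15) did not pass.

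**Figure D3:**
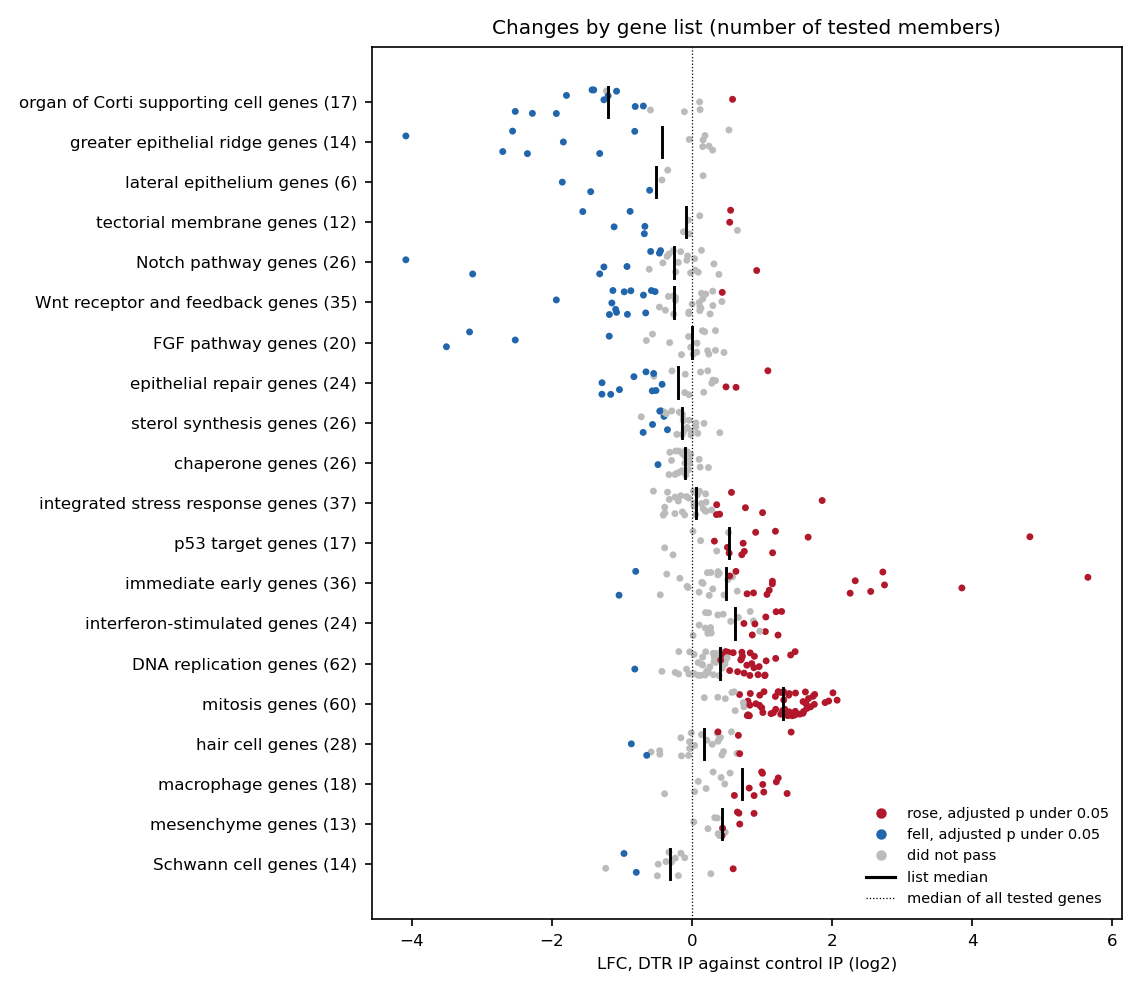
Each point is the LFC of 1 tested gene, grouped by gene list with the number of tested members, and the bar is the list's median. The supporting cell list has a median of -1.20, and all points of the mitosis list (median 1.30) lie above 0.

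Genes of mitosis rose. Of 60 listed genes, 52 rose (against 8.44% of all tested genes) and 31 were called higher (against 1.12%), with a median LFC of 1.30. The list sum was 305 to 426 CPM in the control libraries and 758 to 1037 CPM in the DTR libraries. Ccnb2, a cyclin that activates Cdk1 at mitotic entry (chr9:70407692-70421547, minus strand), had 5.65, 4.02, 4.03 and 3.17 CPM in the control libraries against 24.5, 19.7, 15.4 and 21.6 CPM in the DTR libraries. The groups did not overlap, and the LFC was 2.01 (SE 0.17, adjusted p = 1.16e-07). Its partner Cdk1 rose from 8.43, 5.88, 6.995 and 5.36 CPM to 25.7, 21.6, 21.1 and 24.6 CPM (LFC 1.63), and Mki67, a marker of cycling cells, from 15.4, 15.2, 9.70 and 8.30 CPM to 37.7, 34.9, 27.1 and 28.9 CPM (LFC 1.32). The list's largest rise was that of the kinase gene Pbk, from 4.34, 4.04, 3.41 and 1.70 CPM to 18.7, 18.2, 12.6 and 18.4 CPM (LFC 2.07), followed by Ccnb2 and by Ube2c, the ubiquitin-conjugating enzyme of the anaphase-promoting complex (LFC 1.95). Rises covered kinases (Aurkb, LFC 1.58, and Plk1, LFC 1.54), the chromosome passenger Birc5 (LFC 1.59), motor proteins (Kif2c, LFC 1.90, and Kif11, LFC 1.73), kinetochore proteins (Cenpf, LFC 1.75, and Nuf2, LFC 1.47) and the checkpoint target Cdc20 (LFC 1.45). The 8 that did not pass included Foxm1 (LFC 0.57), Cdc25b (LFC 0.18) and Pttg1 (LFC 0.62), and Pttg1 did pass when the replicate number was a block.

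Many promoters of mitosis genes carry a cell cycle homology region (CHR, letters TTTGAA) bound by the DREAM and MuvB complexes, together with CCAAT boxes bound by NF-Y. In RefSeq promoter windows of GRCm38.p6, each covering 250 bases before and 50 after a start, 47 of the 60 mitosis genes had an entry. The CHR letters stood on either strand in 33 of these genes (70.2%), beside 20.2% of all 27025 genes with a window, and CCAAT in 36 (76.6%), beside 41.1%. Matches of both motifs overlap each other in 47 windows over all promoters. The windows of Ccnb2 (chr9:70421505-70421804, minus strand) and Ube2c (chr2:164769679-164769978, plus strand) are shown because these were the mitosis genes with the largest LFC among those with 1 window and a match, with CHR and CCAAT letters of either strand in capitals.
Ccnb2: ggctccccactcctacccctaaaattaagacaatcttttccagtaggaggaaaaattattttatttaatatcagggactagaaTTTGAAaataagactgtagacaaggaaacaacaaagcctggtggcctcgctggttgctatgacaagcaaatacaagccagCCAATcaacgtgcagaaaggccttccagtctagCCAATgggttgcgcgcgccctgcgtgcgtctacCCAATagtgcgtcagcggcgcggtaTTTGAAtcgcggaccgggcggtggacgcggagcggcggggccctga
Ube2c: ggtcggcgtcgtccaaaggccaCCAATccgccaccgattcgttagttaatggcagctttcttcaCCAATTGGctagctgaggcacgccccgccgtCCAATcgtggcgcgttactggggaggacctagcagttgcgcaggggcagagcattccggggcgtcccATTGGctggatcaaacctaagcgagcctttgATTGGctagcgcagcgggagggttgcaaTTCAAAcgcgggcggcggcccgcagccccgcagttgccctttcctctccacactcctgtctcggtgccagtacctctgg
In Ccnb2 the capitals hold 2 CHR and 3 CCAAT matches, and in Ube2c 1 CHR match on the opposite strand and 6 CCAAT matches, of which a pair overlap. A match is a description of letters and shows no binding.

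Of 62 DNA replication genes, 26 rose and 1 fell, beside 8.44% and 7.3% of all tested genes. Of these genes 5 were called higher (against 1.12%), and the median LFC was 0.40. The rises numbered 17 with IP libraries alone. Thymidine kinase gene Tk1 had 5.95, 5.12, 6.23 and 5.36 CPM in the control libraries against 20.3, 17.0, 17.9 and 17.5 CPM in the DTR libraries (LFC 1.47, SE 0.15), and the ribonucleotide reductase subunit gene Rrm2 had 8.25, 10.4, 7.35 and 7.85 CPM and 34.4, 24.4, 17.0 and 25.8 CPM (LFC 1.41). The methylation reader gene Uhrf1 (LFC 1.06) and the helicase subunit gene Mcm3 (LFC 0.96) rose, while Mcm2 (LFC -0.08), Mcm7 (LFC 0.09) and Pcna (LFC 0.34) did not pass. E2F factors drive many replication genes, and the E2F letters TTTCCCGC or TTTGGCGC stood in the windows of 15 of 47 replication genes with an entry (31.9%), beside 1.8% of all genes. Of the 22 that rose 8 held a match, and of the 25 others 7 did. The window of Mcm3 (chr1:20820263-20820562, minus strand), the member with a match in its only window and the largest LFC, holds 2 matches near its start, shown in capitals.
Mcm3: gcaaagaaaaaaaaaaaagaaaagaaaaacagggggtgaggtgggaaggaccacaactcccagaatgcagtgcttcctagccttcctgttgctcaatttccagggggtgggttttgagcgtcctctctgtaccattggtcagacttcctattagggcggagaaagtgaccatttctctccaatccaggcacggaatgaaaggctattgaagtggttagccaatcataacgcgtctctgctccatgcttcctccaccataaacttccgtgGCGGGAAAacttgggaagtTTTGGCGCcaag
Among 20 regulators of G1, Cdkn1b, the p27 inhibitor of cyclin-dependent kinases, fell from 87.8, 103, 69.5 and 58.2 CPM to 31.6, 51.2, 48.4 and 36.7 CPM (LFC -0.96), while its relative Cdkn1c (p57) rose from 385, 328, 346 and 401 CPM to 580.5, 497, 658 and 542 CPM (LFC 0.72). The cyclin gene Ccnd2 (LFC 0.49) and E2f5 (LFC 0.62) rose as well, and Ccnd1 (LFC -0.24) did not pass. With edgeR 1 gene of the list rose.

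Immediate early genes, which cells transcribe within minutes of a stimulus, also rose in part. Of 36 genes, 15 rose (against 8.44% of all tested genes), and 9 of these were called higher (against 1.12%). The falls numbered 2 (against 7.3%), or 1 without library 3 of control IP, and the median LFC was 0.48. Among the members tested 2 passed the expression minimum through DTR groups alone. Beyond the Egr family the AP-1 subunit gene Jun rose from 36.8, 40.1, 52.3 and 45.7 CPM to 327, 341, 228 and 247 CPM (LFC 2.75, SE 0.18, adjusted p = 3.86e-09). Fos had 8.88, 8.79, 7.61 and 7.26 CPM in the control libraries against 82.7, 57.5, 28.0 and 31.6 CPM in the DTR libraries (LFC 2.33), and Atf3, a stress-induced factor of the same superfamily, had 1.53, 1.98, 2.94 and 2.94 CPM and 23.1, 17.1, 15.3 and 15.3 CPM (LFC 2.55). Maff (LFC 2.72) and Fosb (LFC 2.26) rose from low control levels. Not every member rose. Egr3 (LFC -0.45), Egr2 (LFC 0.27), Nr4a1 (LFC -0.07) and Myc (LFC 0.30) did not pass, and Nr4a3 (LFC -1.04) and Btg2 (LFC -0.80) fell. The AP-1 letters TGANTCA were found in none of the 26 members with a promoter window, beside 8.97% of all genes, and the CRE letters TGACGTCA in 4 of 26 (15.4%), beside 2.03%.

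NF-kB genes, a group chosen after the values were seen, gave 12 rises among 21 tested, beside 8.44% of all tested genes. Relb, a subunit of the noncanonical dimer, had 12.1, 11.8, 14.7 and 17.3 CPM in the control libraries against 142, 125, 96.1 and 134 CPM in the DTR libraries (LFC 3.09, SE 0.16), and its partner Nfkb2 rose from 14.6, 12.2, 9.64 and 13.6 CPM to 133, 100.4, 60.2 and 109.8 CPM (LFC 2.89). The inhibitor gene Nfkbia rose from 136, 125, 147 and 137 CPM to 317, 333, 357 and 320.3 CPM (LFC 1.33), while Rela (LFC 0.21) and the kinase gene Ikbkb (LFC -0.20) did not pass. Of 17 p53 target genes, 11 rose, beside 8.44% of all tested genes (median LFC 0.53). Eda2r led them, with the cell death genes Bbc3 (LFC 1.19), Pmaip1 (LFC 1.66) and Bax (LFC 0.75), the cyclin gene Ccng1 (LFC 1.15) and Mdm2, which degrades p53 (LFC 0.51). Cdkn1a, the p21 inhibitor, rose from a mean of 323 to 389 CPM (LFC 0.32, adjusted p = 0.0478), and did not pass under 13 of 20 alternatives. Of the p53 targets tested 2 passed the expression minimum through DTR groups alone.

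Of 37 integrated stress response genes 7 rose, and the median LFC of 0.06 was near that of all genes. Of all tested genes 8.44% rose and 7.3% fell. The regulator gene Atf4 had 92.5, 110.3, 108 and 87.5 CPM in the control libraries against 204, 201, 198 and 186 CPM in the DTR libraries (LFC 1.01), Ddit3 rose from 15.2 to 27.2 CPM (LFC 0.76) and the stress cytokine gene Gdf15 from 0.231 to 2.38 CPM (LFC 1.86). Gdf15 passed the expression minimum through DTR groups alone, so it was tested only because it was high there. Targets in amino acid supply such as Asns (LFC -0.55), Chac1 (LFC -0.39) and Trib3 (LFC -0.16) did not pass. The count of rises was 4 without library 1 of either group or library 3 of control IP, 4 with median centring or no filter, and 3 with IP libraries alone, edgeR or DESeq2. The amino acid response letters TGATGNAAN stood in 12 of 31 members with a window (38.7%), beside 4.5% of all genes, and in none of the 7 that rose. Of 26 chaperone genes 1 fell, Pdia4 (LFC -0.48, adjusted p = 0.0495), which did not pass under 11 of 20 alternatives, 6 of them leaving out a single library, while 3 of the list fell with DESeq2 or with the block. Of 8 genes of diphthamide synthesis and its carrier Eef2, the modification that DT attacks, the LFC lay between -0.18 and 0.22 (Eef2, LFC 0.22, adjusted p = 0.167).

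Of 24 interferon-stimulated genes 8 rose (against 8.44% of all tested genes), and the LFC of the whole list ran from 0.02 to 1.28 (median 0.61). In this list 1 member passed the expression minimum through DTR groups alone. The RNA sensor gene Ddx58 rose from 8.94, 12.2, 9.64 and 11.8 CPM to 28.2, 34.5, 21.5 and 28.4 CPM (LFC 1.28), and the class I antigen genes H2-K1 (LFC 1.23), H2-D1 (LFC 1.05) and B2m (LFC 0.74) rose. Ifitm3 was higher in libraries 3 and 4 of DTR IP than in 1 and 2, with 121, 122, 236 and 237 CPM. H2-K1 and H2-D1 are near-identical relatives, so the split of reads between them is uncertain. Among 21 cytokine signalling genes 5 rose and 2 fell, beside 8.44% and 7.3% of all tested genes, and 2 members passed the expression minimum through DTR groups alone. The rises were led by the chemokine gene Cxcl16, from 11.9, 14.7, 14.6 and 22.1 CPM to 42.8, 41.9, 50.9 and 47.1 CPM (LFC 1.48). The rises numbered 3 without library 1 of DTR IP or library 4 of control IP, or with a minimum of 2 CPM, and 1 fell without library 3 of DTR IP or library 4 of control IP, or with IP libraries alone or edgeR. Markers of macrophages, which also express interferon and chemokine genes, moved in the same direction, with 10 of 18 rising (median LFC 0.71) and a list sum of 43.0 to 62.7 CPM in control libraries against 80.1 to 129 CPM in DTR libraries. C1qb rose from 4.72, 3.70, 4.41 and 4.05 CPM to 14.7, 10.4, 12.1 and 14.4 CPM (LFC 1.36) and Csf1r from 4.76 to 10.2 CPM (LFC 1.01), whereas Cx3cr1 (LFC 0.20), Ptprc (LFC 0.30) and P2ry12 (LFC -0.39) did not pass. The part of macrophages in the interferon, cytokine and NF-kB values was not tested.

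**Figure D4:**
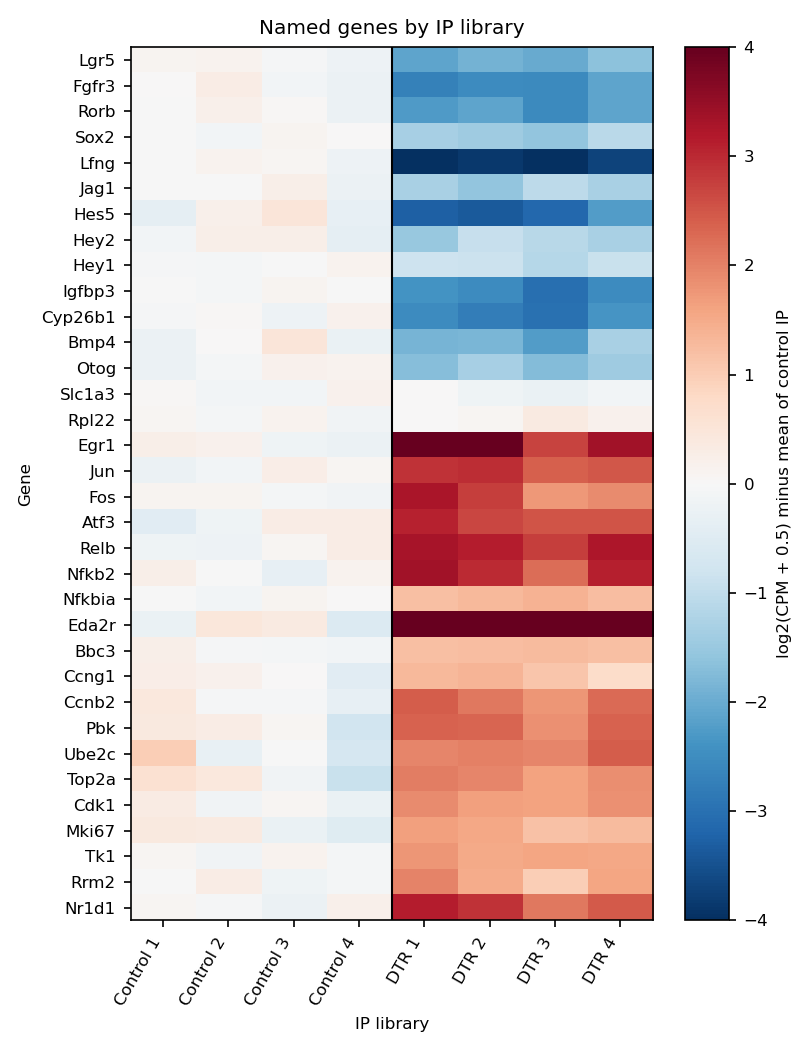
Colour gives log2(CPM + 0.5) in each of the 8 IP libraries minus the gene's mean in control IP, for named genes, with the scale ending at 4 in either direction. The 4 DTR columns share the direction of change for Lfng, Fgfr3, Jun and Ccnb2, and library 3 of DTR IP is paler for Egr1.

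Among the cytoskeletal genes that passed most rose, and among the repair genes that passed most fell. Of 31 actin and adhesion genes 9 rose and 2 fell, beside 8.44% and 7.3% of all tested genes. Of the rises talin gene Tln1 (LFC 0.81), nonmuscle myosin genes Myh9 (LFC 0.60) and Myh10 (LFC 0.54) and Tagln (LFC 0.98) were examples, while the actin gene Actg1 fell (LFC -0.71). The rises numbered 5 without library 3 of DTR IP or library 1 or 2 of control IP, 4 without library 4 of DTR IP, and 4 or 5 with edgeR. Leaving out 1 library left 0 to 2 falls. Of 24 epithelial repair genes 10 fell and 3 rose (1 with IP libraries alone), and 1 member passed the expression minimum through DTR groups alone. The laminin chain gene Lamb3 fell from 18.4, 23.7, 15.4 and 29.6 CPM to 9.74, 10.4, 5.43 and 9.73 CPM (LFC -1.28), the integrin gene Itgb6 from a mean of 80.8 to 37.4 CPM (LFC -1.16) and Anxa1 from 36.2 to 14.8 CPM (LFC -1.28), while Anxa3 rose (LFC 1.08). Of 26 sterol synthesis genes 6 fell, among them the squalene epoxidase gene Sqle (LFC -0.46), with a list median of -0.14 and beside 7.3% of all tested genes. The falls numbered 3 without library 2 of control IP or with IP libraries alone, and up to 9 under other alternatives.

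Genes listed as markers of cells outside the supporting cells and GER were present in every IP library. Hair cell genes summed to 495 to 645 CPM in control libraries against 626 to 744 CPM in DTR libraries, and 4 of 28 rose and 2 fell. The glutamate transporter gene of inner hair cells, Slc17a8, rose from 1.17, 1.72, 0.970 and 0.360 CPM to 4.21, 2.81, 5.37 and 2.96 CPM (LFC 1.42), and Atoh1, the factor that specifies hair cells, fell from 9.60, 11.6, 19.0 and 10.2 CPM to 6.33, 6.30, 7.98 and 6.18 CPM (LFC -0.87). Atoh1 had a higher mean in control IP (12.6 CPM) than in control input (6.77 CPM), whereas Myo6 had 141 and 323 CPM. The count of hair cell rises was unstable, being 1 when control library 1, 3 or 4 or DTR library 1 or 3 was left out, 2 without DTR library 2, and 7 when the replicate number was a block. Neuron genes summed to 1238 to 1776 CPM in control libraries against 807 to 1127 CPM in DTR libraries, with 2 of 14 falling (4 with the block), Syt1 (LFC -0.86) and Isl1 (LFC -0.69). Isl1 alone had 816, 1106, 1226.5 and 843 CPM in the control libraries and 491, 646, 610 and 518 CPM in the DTR libraries. Its mean was 998 CPM in control IP against 274 CPM in control input, so these sums do not measure RNA of neurons alone. Schwann cell genes summed to 1076 to 1578 and 874 to 1130 CPM, with falls of Mbp (LFC -0.97) and Cldn19 (LFC -0.79) among 14 (5 falls with the block). Since 8.44% and 7.3% of all tested genes would give about 1 or 2 genes in lists of this size, the hair cell, neuron and Schwann counts are given as values and not as results about these lists. Mesenchyme genes summed to 8542 to 9465 CPM in control libraries against 11058 to 14992 CPM in DTR libraries, and 6 of 13 rose, including Col1a2 (LFC 0.65), Postn (LFC 0.89) and Tbx18 (LFC 0.67), and 3 rose with edgeR. Vascular genes went from sums of 287 to 377 CPM to sums of 412 to 493 CPM, with rises of Esam (LFC 1.19), Pecam1 (LFC 0.78) and Emcn (LFC 0.65) among 15 (5 rises with the block). Red blood cell genes overlapped between the groups, at 74.3 to 128 and 42.4 to 110.1 CPM. What part these cells have in the changes above, including the collagen rises among tectorial membrane genes, was not tested.

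Beside 8.44% of all tested genes that rose and 7.3% that fell, the ribosomal protein and oxidative phosphorylation groups held smaller shares in the main fit. Of 87 cytosolic ribosomal protein genes 2 rose, Rpl5 (LFC 0.45) and Rps15 (LFC 0.42), with a median LFC of 0.16. The count was unstable, at 19 with the replicate number as a block, 1 to 5 with 1 library left out and 0 with edgeR or DESeq2. Of 84 nuclear genes of oxidative phosphorylation 1 fell (median LFC 0.04). Of 20 genes of the mitochondrial genome 2 fell, a count near the share over all tested genes, with a median of -0.59. None fell without library 1 or 2 of control IP or library 1 or 3 of DTR IP, or with no filter, 1 fell without library 4 of DTR IP, 4 without library 2 of DTR IP and 6 with the block. Their levels varied severalfold between libraries of 1 group, as the values of mt-Nd1 show, at 2067, 2328, 755 and 587 CPM in the control libraries against 352, 1405, 310.0 and 363 CPM in the DTR libraries.

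Whether ribosome-bound RNA changed as the whole tissue did was asked of the interaction, the LFC in the IP minus the LFC in the input. It passed for 2 genes (0.0118% of those tested). Trh had an LFC of -6.50 in the IP and -4.64 in the input, a difference of -1.86 (SE 0.27, adjusted p = 0.0279). In the IP libraries of DTR mice Trh rested on 2 to 6 reads, its LFC there moved with the pseudocount, and the difference was not refitted with another one. In the input Trh went from a mean of 14.1 CPM to 0.102 CPM. The predicted gene Gm34653 rose in the input (LFC 1.67) and had an LFC of -0.06 in the IP, a difference of -1.73 (adjusted p = 0.0283). The count was small and unstable, being 0 without DTR IP library 2 or 4 or control IP library 3 or 4, 1 without control IP library 2 and 6 without DTR IP library 1. With DESeq2 49 genes passed, and these included Gm34653 but not Trh.

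IP and input of a pool come from the same homogenate, and 40 genes passed once each pool was fitted as a block, 15 with a positive and 25 with a negative difference, among them both genes above. Ccnb2 had an LFC of 2.01 in the IP and 0.93 in the input (blocked adjusted p = 0.0268 for the difference of 1.08), Pbk of 2.07 and 0.88, and Top2a, which untangles chromosomes, of 1.75 and 0.62. Over the 60 mitosis genes the median LFC was 1.30 in the IP and 0.74 in the input, and the difference was positive in 55, beside 8337 of all 16994 genes. Rorb fell more in the IP (LFC -2.28) than in the input (LFC -1.10). Krt80 had an LFC of -2.46 in the IP and -0.48 in the input, but its input means were 0.858 CPM in control and 0.626 CPM in DTR. At such levels the pseudocount compresses the LFC, so its changes in IP and input cannot be compared in size. Egr1 (LFC 3.85 and 4.79), the phosphatase gene Dusp8 (LFC 2.26 and 3.58) and Snhg15 (LFC 2.60 and 3.90) rose in both, with a smaller LFC in the IP under the block. For most genes with large changes, such as Lgr5 (LFC -1.93 and -2.004) and Fgfr3 (LFC -2.52 and -3.32), the difference did not pass in either fit.

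**Figure D5:**
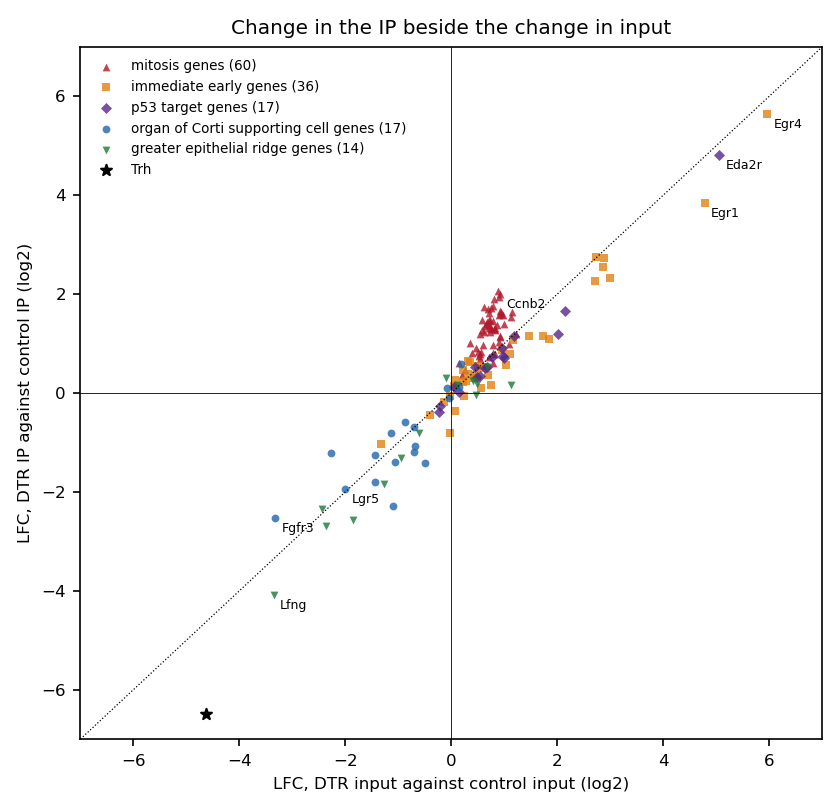
Each point is 1 gene of 5 lists, or Trh (star), with its LFC in the input libraries on the x axis and in the IP libraries on the y axis, and the dotted line marks equal change. Trh lies below that line, and the mitosis genes lie mostly above it, at a median of 0.74 in the input and 1.30 in the IP.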

How the data were processed

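Of 16 RNA sequencing libraries, 8 IP libraries carry the comparison. Values deposited by the authors are CPM for each gene in each library. The paper names HISAT2, GRCm38 and HTSeq, while the submitters' processing notes name TopHat and GRCm38. Of the deposited CPM above 0, 99.99975% were whole multiples of the value of 1 read (tolerance 0.01 reads), so whole read counts were recovered for edgeR and DESeq2, which called 437 and 439 genes. Of 50316 genes listed, 2587 were NA in every library and were left out, and 26 symbols altered to dates were restored from GENCODE M21, which also gave positions and overlaps. Counts cover counting error only, since reads of amplified libraries are not independent molecules.

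The deposited CPM of all 16 libraries were brought to 1 distribution by quantile normalization, and 0.5 was added before taking log2. A gene was kept if each of the 4 libraries of some group had 0.5 CPM or more. A limma trend model (3.58.1, R 4.3.3) was fitted over all 16 libraries with Benjamini-Hochberg adjustment over 16994 genes. Separation is the lowest value of the higher group over the highest of the lower group, after raising all values to a floor of 1.08 CPM, their 10th percentile. In simulated data for this comparison (16619 genes), the adjusted p recovered 100 of 100 genes changed 2-fold, and all criteria called 26 of these and 97 of 100 changed 4-fold. Of the unchanged genes 6 passed and 0 were called. The simulated counts had the same spread setting for every gene and no replicate effect, and genes of low level were not among those changed. Recovery of low or widely varying genes was therefore not tested.

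Named genes were Lgr5, Slc1a3, Rpl22 and Mki67, the 12 largest called changes in each direction with at least 5 CPM in the higher group (leaving out Gm numbers and Rik names), the 4 called genes with the highest CPM in each direction, up to 3 passing members and the most abundant member of each list, and called genes passing the interaction. Trhr, Penk, Galr1, Sox2, Hey1, Hey2, Kcnj10, Ano1, Fst, Top2a, Cdk1, Plk1, Fos, Fosb, Atf3, Maff, Ccng1, Mdm2, Ifitm3, B2m, Krt80, Gm34653 and further list members given with an LFC alone were chosen after their values were seen. Members and lists were chosen with earlier results of these data known.

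Same-numbered libraries of the control and DTR groups deviated together (r from 0.306 to 0.560 for the 4 pairs), while the labels do not say what a number marks, and the fourth replicate carries another number in the deposited data than in its title. The number was used as a block in an alternative. Other alternatives were no quantile normalization, median centring, centring within length bins, other pseudocounts (0.1 and 1), no filter or a minimum of 2 CPM, IP libraries alone, edgeR (4.0.16), DESeq2 (1.42.0), calls without the fold or separation criterion, and each IP library left out. Gene set tests were not run.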

Additional observations from a re-analysis of the deposited data

Results flagged for a closer look

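In 22 of 318 combinations of a named gene and a group, 1 of the 4 libraries lay far from the other 3 by Dixon's criterion, which chance alone meets in about 1 in 20 groups. Library 3 of DTR IP accounted for 8 of these. It was the lowest of its group for Anxa1 (9.41 CPM), Hey1 (81.5 CPM), Hspa5 (749 CPM), Lamb3 (5.43 CPM), Pbk (12.6 CPM) and Penk (1.72 CPM), and the highest for Atoh1 (7.98 CPM) and Mbp (240.8 CPM). The other libraries of DTR IP gave the highest values for Fgf3 (0.0964 CPM) and Slbp (101.3 CPM) in library 1, for mt-Nd1 (1405 CPM) and mt-Tp (2.17 CPM) in library 2, and for Hes5 (1.87 CPM), Notum (32.7 CPM) and Ube2c (28.0 CPM) in library 4. In control IP, the highest values were those of Bbc3 in library 1 (27.7 CPM), Pecam1 (6.02 CPM) and Scd1 (36.3 CPM) in library 2, and Egr4 (0.262 CPM) and Mmp14 (1009 CPM) in library 4, and the lowest were those of Cdkn1a in library 2 (277 CPM) and Tln1 in library 3 (63.1 CPM).

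For 2 genes the change in the IP differed from that in the input by the interaction test, Trh (difference in LFC of -1.86) and Gm34653 (-1.73).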

How the results depend on the processing

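The 419 called genes (191 higher, 228 lower) numbered between 382 and 439 without quantile normalization, with either kind of centring, with other pseudocounts, with IP libraries alone and with edgeR or DESeq2, and 542 with no filter. With a minimum of 2 CPM there were 272, 107 of them higher. Without the separation criterion there were 756 (378 higher and 378 lower), and without fold and separation criteria 2674 (1434 higher and 1240 lower). Leaving out 1 library gave 444 to 483 called genes, 192 to 253 higher and 230 to 263 lower. With the replicate number as a block 382 were called (169 higher and 213 lower), 380 of them shared with the 419, and 2004 passed higher and 1782 lower, against 990 and 868 with IP libraries alone and 985 and 845 with edgeR. Without quantile normalization the share of higher genes among the called was 53.4%, against 45.6%, while the median LFC of all genes moved to 0.05.

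The interaction passed for 2 genes, for 1 without quantile normalization, for 40 with the pool as a block, for 49 with DESeq2 (1 of the 2 among them, Gm34653) and for 0 to 6 with 1 library left out.

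Over 159 named genes and 20 alternatives, 3024 of 3178 values kept their side of the threshold, 137 lost the threshold and 17 gained it. No value that passed in the main fit or in the alternative changed direction. Values that passed in neither could change sign, as for Atp5b (LFC from -0.12 to 0.08) and Sparcl1 (LFC from -0.08 to 0.20). Of named genes, 129 kept their side of the threshold under every alternative. Atf4 had the call most often lost, under 10 alternatives (LFC from 0.91 to 1.05). Depth limits genes near 3 reads, such as Fgf3 and Gpr50 in DTR IP.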

Other observations

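The following groups were chosen after their values were seen and are given as values. Of 20 circadian clock genes 8 rose and 2 fell, beside 8.44% and 7.3% of all tested genes. Nr1d1, which encodes the repressor REV-ERB alpha, had 23.4, 21.6, 19.0 and 25.5 CPM in control IP and 201, 169, 97.0 and 124 CPM in DTR IP (LFC 2.68), and its exons overlap Thra. Nr1d2 (LFC 0.88), Ciart (LFC 1.25), Per1 (LFC 0.92), Cry1 (LFC 0.91) and Dbp (LFC 0.76) rose as well. The falls were Rora (LFC -0.45) and Rorb (LFC -2.28), which is also in the supporting cell list. Arntl (LFC -0.30) and Clock (LFC 0.13) did not pass. The time of day at which pools were taken is not given in the sources used here.

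Of 15 small nucleolar RNA host genes 3 rose, beside 8.44% of all tested genes. Snhg15 had 8.19, 11.9, 6.32 and 6.67 CPM in control IP and 54.1, 46.6, 61.4 and 57.2 CPM in DTR IP (LFC 2.60), and Snhg17 rose from means of 21.2 to 46.5 CPM (LFC 1.09). Of 37 histone cluster genes 26 rose, beside 8.44% of all tested genes, with Hist1h2be going from means of 1.11 to 10.99 CPM (LFC 2.69). In that group 19 genes passed the expression minimum through DTR libraries alone, and as histone genes are near-identical copies whose mRNA mostly lacks a poly(A) tail, their reads are uncertain.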
